A study of Mus musculus with 2 samples.

Results

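The genes described here set the electrical excitability and the calcium handling of islet endocrine cells. They were Abcc8 and Kcnj11, the subunits of the ATP-sensitive potassium (KATP) channel, Cacna1c, Cacna1d and Cacna1a, pore subunits of voltage-gated calcium channels, Kcnk16, a tandem-pore potassium channel, Trpm5, a calcium-activated cation channel, and Atp2a2 and Atp2a3, calcium pumps of the endoplasmic reticulum. These 9 genes were taken by symbol from the 31053 genes of the count matrices, for their role in excitability. No measured value entered the rule, though earlier results of these data were known when it was set. The data were single-cell RNA-seq counts of pancreatic islets from male C57/B6 mice aged 16 weeks. The WT library was made from pooled islets of 4 mice on standard chow, as the methods of the study state for all mice not on the high-fat diet. The HFD library was made from pooled islets of 4 mice that had eaten high-fat chow (60% of calories as fat) for 10 weeks, starting when they were 6 weeks old. Each group was thus 1 library, so no difference between WT and HFD below has a replicate check, no p-value is given, and diet cannot be told apart from anything else that differed between the 2 preparations. All intervals are exact 95% intervals (Poisson for levels, conditional binomial for ratios, Clopper-Pearson for shares) and cover counting error only.

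When blood glucose rises, a β cell makes more ATP, its KATP channels close and the membrane depolarises, with cation channels such as that of Trpm5 adding depolarising current and tandem-pore potassium channels such as that of Kcnk16 opposing it. Voltage-gated calcium channels then open, calcium enters, and insulin granules fuse with the membrane. The pumps of Atp2a2 and Atp2a3 return calcium to the endoplasmic reticulum between the oscillations. Glucagon-secreting α cells and somatostatin-secreting δ cells use the same KATP channel and a related set of calcium channels.

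The WT matrix held 73843674 unique molecular identifiers (UMIs, 1 per captured transcript) in 3895 barcodes, and the HFD matrix 94375138 UMIs in 8951 barcodes. Of these, 2519 WT and 6774 HFD cells were kept, and 9 barcodes occurred in both libraries, 2 of them among the kept cells. β-like cells numbered 1946 in WT and 5909 in HFD, α-like cells 59 and 203, δ-like cells 51 and 123, and γ-like cells 12 and 14. The insulin genes took 60.1% of the UMIs of WT β-like cells and 56.8% of those of HFD β-like cells. The defining hormone of each other type led in that type, with Gcg at 272759 CPM (counts per 1000000 UMIs) in WT α-like cells, Sst at 139402 CPM in WT δ-like cells and Ppy at 384300 CPM in WT γ-like cells. The δ-like cells also carried Ppy, with 95174 CPM in the WT and 60131 CPM in the HFD library. The summed γ markers of WT δ-like cells (163488 CPM) exceeded their δ markers (144246 CPM), so δ-like and γ-like cells may not be fully separated, and each level given for them rests on that. The α-like cells carried Sst (13969 CPM in WT, 13275 CPM in HFD) and Ppy (26652 and 22876 CPM). Only 14 of 59 WT and 1 of 203 HFD α-like cells had under 1% of UMIs from other hormones, which limits the α-like levels too. Depth differed between the libraries, with a median of 29456 UMIs per β-like cell in WT and 12090 in HFD. Summed markers of acinar cells made up 238 CPM of WT and 615 CPM of HFD β-like cells and those of erythroid cells 1.24 and 40.5 CPM, and their part in the ratios below was not tested. A cluster of 77 WT and 42 HFD cells went unnamed and was left out of every class.

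Levels are given on a pair of scales. The first is CPM of all UMIs of a class. The second leaves the hormone genes Ins1, Ins2, Iapp, Gcg, Sst, Ppy and Pyy and the mitochondrial genes out of the denominator, since these took 69.0% of the UMIs of WT β-like cells but 39.7% of those of WT α-like cells and 39.2% of those of WT δ-like cells. On the first scale every other gene of a β-like cell is therefore pressed down relative to α-like and δ-like cells. As a measure of free RNA, the β-like level of each gene was scaled by the insulin level of the other class. This gives what that class would show if its reads of the gene came with the same carried-over RNA as its insulin reads.

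On GRCm38, Abcc8 lies at chr7:46104523-46180033 and Kcnj11 next to it at chr7:46093953-46100764, both on the minus strand. Trpm5 is at chr7:143069153-143094642 (minus strand) and shares exonic sequence with Tssc4 on the other strand, Kcnk16 at chr14:20261376-20269199 (minus strand), and Cacna1d at chr14:30039939-30491455 (minus strand) with exonic overlap with Chdh on the other strand. Cacna1a is at chr8:84388440-84640246 (plus strand), Cacna1c at chr6:118587240-119196418 (minus strand), Atp2a2 at chr5:122453513-122502225 (minus strand), and Atp2a3 at chr11:72961169-72993044 (plus strand). Cacna1a and Atp2a2 overlap exons of Gm16183 and Gm43361 on the other strand, and no member shares exonic sequence with another gene on its own strand in the GENCODE annotation. The 250 bases before the RefSeq start of Trpm5 and of Kcnk16 (GRCm38.p6) are printed because these genes stood at opposite ends of the members in the HFD to WT comparison. Neither window touches an annotated exon. Capitals mark matches to the E-box CANNTG, which reads as the same pattern on both strands, and are absent where it has no match. The Trpm5 window is chr7:143094643-143094892 and the Kcnk16 window chr14:20269270-20269519, both given 5′ to 3′ on the minus strand.
Trpm5: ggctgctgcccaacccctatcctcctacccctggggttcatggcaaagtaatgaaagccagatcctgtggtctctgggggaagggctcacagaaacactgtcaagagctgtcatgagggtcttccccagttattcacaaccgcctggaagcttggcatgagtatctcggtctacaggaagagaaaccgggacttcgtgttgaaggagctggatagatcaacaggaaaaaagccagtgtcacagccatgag
Kcnk16: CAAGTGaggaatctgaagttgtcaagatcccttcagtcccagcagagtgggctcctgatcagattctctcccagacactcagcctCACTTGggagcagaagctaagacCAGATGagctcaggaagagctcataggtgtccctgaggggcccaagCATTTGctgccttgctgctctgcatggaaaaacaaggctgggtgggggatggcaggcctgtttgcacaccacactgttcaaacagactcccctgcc
The Kcnk16 window held 4 matches to CANNTG and the Trpm5 window 0, while 66.2% of 32851 RefSeq windows of the same length held at least 1. Neither held TAATTA (in 4.84% of windows), TGACGTCA (1.55%) or TATAAA (12.4%) on either strand. These are letters in a window, and nothing about binding was measured.

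Among the endocrine types Trpm5 was read almost entirely in β-like cells. It gave 7994 UMIs in WT β-like cells, or 125 CPM (interval 123 to 128), and 6389 UMIs in HFD β-like cells, or 78.5 CPM (76.6 to 80.4). Against these stood 2 UMIs in WT and 3 in HFD α-like cells, 2 and 5 in δ-like cells, and 0 in γ-like cells of both libraries. The 5 UMIs of HFD δ-like cells made 11.1 CPM (3.60 to 25.9), and carried-over RNA in proportion to insulin would have given 7.54 CPM. In none of these endocrine classes did the interval lie above the level that insulin-proportional free RNA would give, and endothelial-like cells, which should lack the gene, held 4.09 CPM in WT and 5.03 CPM in HFD. Outside the endocrine and endothelial classes the insulin measure did not cover all Trpm5 UMIs, with 32.7 CPM (17.4 to 56.0) against 14.5 CPM in WT fibroblast- or stellate-like cells and 90.0 CPM (58.8 to 132) against 51.8 CPM in HFD B-like cells, in which insulin took 37.5% of UMIs. On the scale without hormones the WT β-like level was 88.0 times that of α-like cells (24.4 to 727) and 56.5 times that of δ-like cells (15.6 to 467). In HFD these ratios were 46.5 (15.9 to 226) and 13.5 (5.79 to 41.6). The γ-like classes were too small to tell a low level from none, since a count of 0 there allows up to 15 CPM in WT and 32.6 CPM in HFD (3 counts per library). Without hormones the lower bound of the β to γ ratio was 9.39 in WT and 2.36 in HFD.

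The calcium pumps were also highest in β-like cells, but not limited to them. Atp2a2, the widely expressed pump, measured 362 CPM (357 to 367) in WT and 354 CPM (350 to 358) in HFD β-like cells. It measured 135 CPM (109 to 164) and 110 CPM (90.8 to 133) in α-like cells, 122 CPM (92.2 to 158) and 138 CPM (105 to 176) in δ-like cells, and 143 CPM (125 to 164) and 178 CPM (146 to 215) in endothelial-like cells. The α-like and δ-like intervals overlapped within each library. Without hormones in the denominator, the β-like level was 5.24 times the α-like level in WT (4.29 to 6.46) and 5.68 times in HFD (4.71 to 6.90). Atp2a3 measured 80.3 CPM (78.1 to 82.6) in WT and 71.9 CPM (70.1 to 73.8) in HFD β-like cells. Its levels were 41.6 and 27.8 CPM in α-like cells and 47.9 and 39.9 CPM in δ-like cells. In HFD γ-like cells 3 UMIs gave 32.6 CPM (6.73 to 95.4), an interval that overlapped that of β-like cells. Atp2a3 made up 18.2% (17.7 to 18.6) of the UMIs of the 2 pumps in WT β-like cells and 16.9% (16.5 to 17.3) in HFD β-like cells, against 23.6% (16.5 to 32) and 20.1% (13.8 to 27.8) in α-like cells and 28.2% (18.6 to 39.5) and 22.5% (13.9 to 33.2) in δ-like cells. The WT β-like and δ-like intervals met at their ends, and the other β to α and β to δ pairs of the same library overlapped.

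Both KATP genes were present in every endocrine type. Abcc8, the sulfonylurea-binding subunit, measured 468 CPM (408 to 535) in WT and 450 CPM (390 to 517) in HFD δ-like cells, 345 CPM (304 to 391) and 267 CPM (236 to 300) in α-like cells, and 208 CPM (204 to 211) and 189 CPM (186 to 192) in β-like cells. The order δ, α, β therefore held in both libraries with no overlap, but it rested on the scale. Without hormones in the denominator the order became δ, β, α, with 770, 670 and 573 CPM in WT and 721, 577 and 461 CPM in HFD. On that scale the δ-like and β-like intervals overlapped in WT and were apart in HFD, and the β-like and α-like intervals were apart in both. γ-like cells came last of the endocrine types on both scales, with an interval that overlapped that of the neighbouring type in HFD, at 140 CPM of all UMIs in WT (92.8 to 202) and 131 CPM in HFD (67.5 to 228). Endothelial-like cells held 10.9 and 13.4 CPM, where insulin-proportional free RNA would give 10.9 and 10.2 CPM.

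Kcnj11, the pore of the same channel, gave 19.3 CPM (18.3 to 20.4) in WT and 18.4 CPM (17.5 to 19.4) in HFD β-like cells. The α-like cells gave 41.6 CPM (28.1 to 59.4) and 30.8 CPM (20.9 to 43.8), and the δ-like cells 58.8 CPM (38.8 to 85.6) and 22.2 CPM (10.6 to 40.8). Without hormones in the denominator the intervals of all neighbouring types in the order overlapped in both libraries. The β to δ ratio on that scale was 0.646 in WT (0.441 to 0.984) and 1.59 in HFD (0.860 to 3.32), so its direction differed between the libraries. The δ-like level was lower in HFD than in WT, at a ratio of 0.377 (0.163 to 0.804), from 27 UMIs in WT and 10 in HFD. Median depth was 7258 UMIs per δ-like cell in WT and 2883 in HFD, and its part in this ratio was not tested. Of the summed Abcc8 and Kcnj11 UMIs, Kcnj11 made 8.52% (8.07 to 8.99) in WT and 8.90% (8.48 to 9.34) in HFD β-like cells. In δ-like cells its share was 11.2% (7.48 to 15.8) in WT and 4.69% (2.27 to 8.46) in HFD, intervals that overlap.

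The 3 calcium channel pores made up nearly all Cacna1 UMIs of β-like cells. Among 10 Cacna1 genes, with 4321 UMIs in WT and 4019 in HFD β-like cells, Cacna1a, the pore of P/Q-type channels, held 43.0% (41.6 to 44.5) in WT and 39.1% (37.6 to 40.6) in HFD. Cacna1d, an L-type pore, held 40.5% (39.0 to 42.0) and 41.7% (40.1 to 43.2), and Cacna1c, the other main L-type pore, 12.1% (11.1 to 13.1) and 14.8% (13.7 to 15.9). The share of Cacna1a was thus lower and that of Cacna1c higher in HFD without overlap of the intervals, while the Cacna1d intervals overlapped. Cacna1b followed with 3.19% and 3.31%, and the R-type pore Cacna1e had 2 UMIs in each library. The δ-like cells differed from this make-up in Cacna1d, which held 22.9% (13.7 to 34.4) in WT and 20.8% (12.2 to 32) in HFD, and in Cacna1h, a T-type pore, which held 14.3% (7.07 to 24.7) of 70 UMIs in WT and 20.8% (12.2 to 32) of 72 UMIs in HFD δ-like cells, against 0.741% and 0.672% in β-like cells. In HFD α-like cells Cacna1h held 8.43% (3.46 to 16.6) of 83 UMIs, also apart from β-like cells, and in WT α-like cells 3.66% (0.761 to 10.3) of 82. The Cacna1d share of HFD α-like cells, 24.1% (15.4 to 34.7), was apart from β-like cells too. In WT α-like cells it was 29.3% (19.7 to 40.4), with overlap. Cacna1c held 5.56% (1.53 to 13.6) in HFD δ-like cells, apart from β-like cells, and 4.29% (0.893 to 12.0) in WT, with overlap. UMIs were counted at one transcript end and were not scaled by gene length, so each share is compared between cell types and not between genes.

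By level, Cacna1a measured 29.2 CPM in WT and 19.3 CPM in HFD β-like cells, 56.9 and 38.8 CPM in α-like cells, and 78.4 and 73.2 CPM in δ-like cells. Without hormones the WT β-like and α-like levels were nearly the same at 94.2 CPM (90.0 to 98.6) and 94.3 CPM (67.7 to 128), and in HFD the β-like level was 0.504 times the δ-like level (0.357 to 0.735). Cacna1d measured 27.5 and 20.6 CPM in β-like cells, 33.3 and 19.9 CPM in α-like cells and 34.9 and 33.3 CPM in δ-like cells, with overlap between all neighbouring types. Without hormones its β-like level was 1.61 times that of α-like cells in WT (1.08 to 2.51) and 1.83 times in HFD (1.18 to 3.0). Cacna1c was the lowest, at 8.20 and 7.29 CPM in β-like cells. It gave 10 and 13 UMIs in α-like cells, 3 and 4 in δ-like cells and 0 in γ-like cells, so no order could be read. Endothelial-like cells held 6.14 and 13.4 CPM of Cacna1c (9 and 8 UMIs), above the insulin-proportional level of 0.432 and 0.395 CPM. All 6 pericyte markers were also read in this class, with summed levels of 2465 (WT) and 2796 (HFD) CPM. Pericytes did not form a class of their own, so whether endothelial cells or pericytes held these Cacna1c UMIs was not tested.

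Kcnk16 was shared by all endocrine types. It measured 72.2 CPM (70.2 to 74.4) in WT and 88.9 CPM (86.9 to 91.0) in HFD β-like cells, 115 CPM (91.7 to 143) and 101 CPM (82.7 to 123) in α-like cells, 146 CPM (113 to 185) and 140 CPM (107 to 179) in δ-like cells, and 125 CPM (80.7 to 184) and 97.9 CPM (44.8 to 186) in γ-like cells. Endothelial-like cells held 4.09 and 5.03 CPM, near the insulin-proportional 3.80 and 4.82 CPM. Without hormones all neighbouring types overlapped in both libraries, but the β-like level exceeded the α-like level in HFD by a ratio of 1.55 (1.28 to 1.90), against 1.22 (0.984 to 1.54) in WT.

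**Figure D1:**
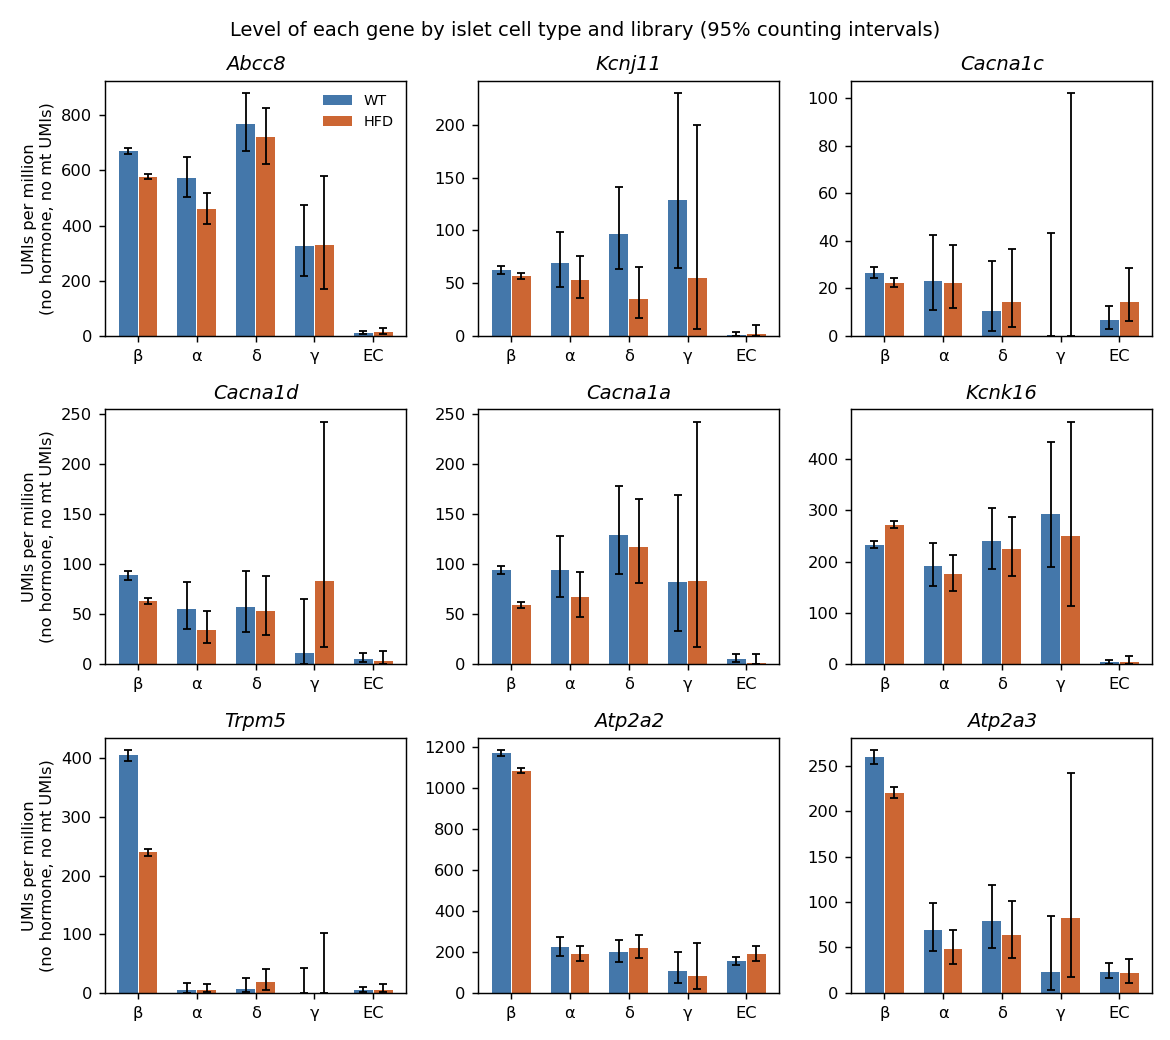
CPM of each gene (hormone and mitochondrial UMIs left out of the denominator) in β-like, α-like, δ-like, γ-like and endothelial-like (EC) cells, with WT in blue, HFD in orange and 95% counting intervals. Trpm5 stands at 405 in WT and 240 in HFD β-like cells and at 17.8 or below in every other class shown, whereas Abcc8, Kcnj11 and Kcnk16 are at endocrine levels in β-like, α-like and δ-like cells alike.

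Read against all genes on the scale without hormones, 3 of the 9 members were at least 2-fold higher in β-like than in α-like cells in WT, where 20.8% of 11363 genes were, and 3 in HFD, where 22.3% were. These were Trpm5, Atp2a2 and Atp2a3 in both libraries. Against δ-like cells the counts were 4 in WT, with Cacna1c added on 3 δ-like UMIs, beside 19.4% of genes, and 3 in HFD, beside 19.7%. No member was at least 2-fold lower in β-like cells, where 6.19% of genes in WT and 5.64% in HFD were so against α-like cells and 9.25% and 10.3% against δ-like cells. The counting interval of the β to α ratio lay above 1 for 5 members in WT (18.8% of genes) and 6 in HFD (23.5%), and below 1 for 0 members in both (8.97% and 9.10%). That of the β to δ ratio lay above 1 for 3 members in WT (11.7%) and 3 in HFD (11.3%), and below 1 for 1 in WT (10.7%) and 2 in HFD (11.3%), namely Kcnj11 in WT and Abcc8 and Cacna1a in HFD.

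To compare shares of cells across depths, each cell was thinned at random to 2000 UMIs. Of 1935 WT β-like cells (median depth before thinning 29640 UMIs), 51.0% (48.8 to 53.3) held a UMI of Atp2a2, 34.5% (32.4 to 36.6) of Abcc8 and 20.5% (18.7 to 22.4) of Trpm5. Of 5897 HFD β-like cells (median 12104 UMIs), the shares were 50.2% (48.9 to 51.5), 31.7% (30.5 to 32.9) and 14.5% (13.6 to 15.4). The Trpm5 share was 1.25% in 160 WT and 0.885% in 113 HFD endothelial-like cells (median 6856 and 4409 UMIs). A Trpm5 UMI was held by 1 of 59 WT and 0 of 199 HFD α-like cells and by 0 of 49 WT and 0 of 114 HFD δ-like cells, and these counts of 0 allow up to 1.51%, 6.12% and 2.63%. For Abcc8 the share was 44.1% (31.2 to 57.6) of WT and 42.7% (35.7 to 49.9) of HFD α-like cells and 69.4% (54.6 to 81.7) and 60.5% (50.9 to 69.6) of δ-like cells. The thinned UMIs included hormone and mitochondrial UMIs. These shares therefore follow the first scale, on which β-like cells are pressed down relative to α-like and δ-like cells. Thinning left out 11 WT and 12 HFD β-like cells, 0 and 4 α-like cells, 2 and 9 δ-like cells and 12 and 42 endothelial-like cells. Without thinning, which ties the share to depth, Trpm5 was seen in 86.7% of WT and 57.7% of HFD β-like cells and Abcc8 in 95.8% and 86.6%.

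Over 12 class and library pairs of at least 50 cells (β-like, α-like, δ-like and endothelial-like in both libraries, and 4 other classes in 1 library each), the genes whose log2(CPM + 1) went most nearly in step with each member were found among 11257 genes. Nearest to Trpm5 were Cox6a2 (Pearson r = 0.98), G6pc2 (0.97) and Ins1 (0.95), the last 2 known for the glucose response and the hormone of β cells. Nearest to Abcc8 were Bex2 and Pcsk2os1 (both 0.99) and Slc7a14 (0.98), to Kcnj11 Kcnh2 (0.98), Celf3 and Rims2 (both 0.97), and to Kcnk16 Grk3, Nfasc and Scg3 (all 0.99). Cacna1d went with B3galt5, Pax6 and Usp29 (all 0.97), Cacna1a with Rbp4 (0.97), Arsb (0.95) and Adgb (0.94), and Cacna1c with Rgs4 and Ccnd2 (both 0.93) and Atp6v0a1 (0.92). Atp2a2 went with Papss2 (0.93), Car10 (0.92) and Fkbp1b (0.91), and Atp2a3 with Rab37, Gjd2 and 9330182L06Rik (all 0.87). The 12 points come from 2 libraries and differ in depth and hormone content, so these values describe them only.

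In β-like cells the HFD to WT comparison asks which parts of the excitation machinery stood at another level after the high-fat diet. Trpm5 had the lowest ratio of the members, at 0.626 (0.606 to 0.647), and Cacna1a followed with 0.662 (0.619 to 0.708). Cacna1d stood at 0.749 (0.700 to 0.802). Kcnk16 was the only member above 1, at 1.23 (1.19 to 1.28). The remaining 5 lay between 0.888 and 0.979, namely Cacna1c at 0.888 (0.788 to 1.0), Atp2a3 at 0.895 (0.862 to 0.930), Abcc8 at 0.909 (0.888 to 0.930), Kcnj11 at 0.954 (0.884 to 1.03) and Atp2a2 at 0.979 (0.962 to 0.996). Without hormones in the denominator the intervals of Kcnj11 (0.903, 0.837 to 0.975) and Cacna1c (0.841, 0.747 to 0.948) also lay below 1.

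Thus 2 of 9 members were at or under a ratio of 1/1.5 and 0 at or over 1.5. Among all 12316 genes with at least 50 UMIs in β-like cells, 5.69% were lower and 3.23% higher by that measure (8.92% in either direction). Among the 8828 genes with at least 500 UMIs, as all members had, 2.31% were lower and 1.72% higher (4.03% in either direction). The counting interval lay below 1 for 6 members and above 1 for 1 member. Among the 12316 genes with at least 50 UMIs it lay below 1 for 26.5% and above 1 for 22.1%. Such an interval narrows as counts rise, and these shares were not taken among the genes with at least 500 UMIs. The median log2 ratio was -0.16 over the members and -0.03 over the genes with at least 50 UMIs. The 474 genes of at least 100 CPM in both libraries had a median of 0.16. Relative to that median the log2 ratio of Trpm5 was -0.84, of Cacna1a -0.76, of Cacna1d -0.58 and of Kcnk16 0.14.

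**Figure D2:**
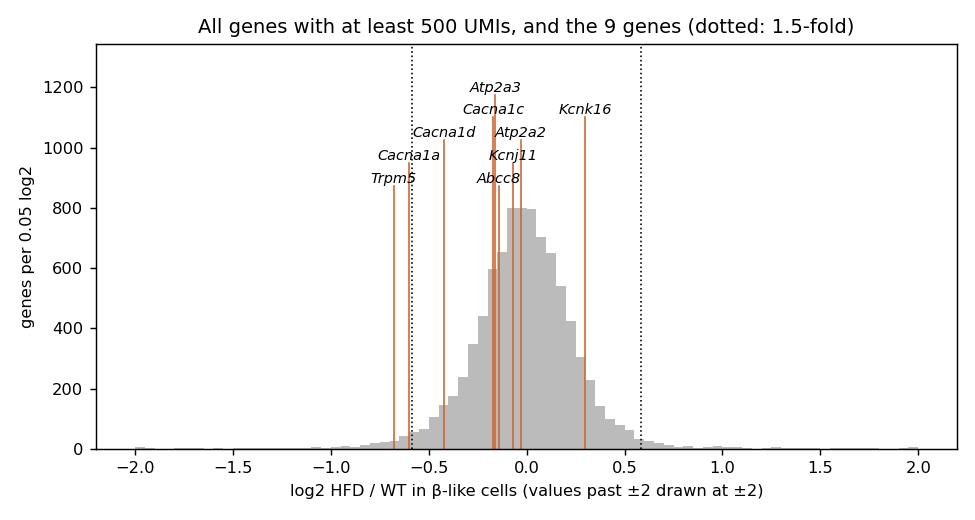
Histogram of log2 HFD to WT ratios of the 8828 genes with at least 500 UMIs in β-like cells, with the 9 members as orange lines and 1.5-fold as dotted lines. Trpm5 (-0.68) and Cacna1a (-0.60) lie outside the lower dotted line, Kcnk16 (0.30) lies on the upper flank, and the other 6 lie between -0.42 and -0.03.

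Because depth differed between the libraries, the ratio was also taken within bands of UMIs per cell. The bands held 103 WT and 195 HFD β-like cells up to 5000 UMIs, 60 and 1892 from 5000 to 10000, 80 and 1766 from 10000 to 15000, 749 and 1891 from 15000 to 30000, and 954 and 165 above 30000. Trpm5 was lower in HFD in all 5. Its WT level was flat over depth, at 116, 138, 122, 125 and 125 CPM from the shallowest to the deepest band, while its HFD level was 84.2, 103, 80.6, 72.2 and 47.4 CPM. The log2 ratios were -0.46 (-1.07 to 0.17), -0.43 (-0.80 to -0.04), -0.59 (-0.85 to -0.32), -0.80 (-0.88 to -0.71) and -1.40 (-1.59 to -1.23). Of the 8828 genes with at least 500 UMIs, 1.33% had a mean over the 2 deepest bands at or under that of Trpm5. In the deepest band the WT cells were still deeper, with a median of 43868 against 32968 UMIs, and insulin took 61.2% of WT and 57.9% of HFD UMIs. The part of these differences in the Trpm5 ratio was not tested.

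Kcnk16 was higher in HFD in the 2 deepest bands, with log2 ratios of 0.28 (0.18 to 0.37) and 0.44 (0.31 to 0.58). Its WT levels over the bands were 91.0, 70.4, 93.6, 75.2 and 70.5 CPM and its HFD levels 101, 84.4, 86.1, 91.1 and 96.0 CPM. In the 3 shallower bands the log2 ratio was 0.14, 0.26 and -0.12 and each interval held 0. When all cells above 15000 UMIs were left out, the log2 ratio of Kcnk16 was -0.02 in place of 0.30.

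The KATP genes were nearer to 1 over all cells than within the deeper bands. Abcc8 gave log2 ratios of -0.75 (-0.92 to -0.58), -0.24 (-0.30 to -0.19) and -0.32 (-0.43 to -0.22) in the 3 bands above 10000 UMIs, against -0.14 over all cells. Kcnj11 gave -0.80 (-1.32 to -0.23), -0.39 (-0.57 to -0.20) and -0.41 (-0.77 to -0.06) there, against -0.07 over all cells. Up to 5000 and from 5000 to 10000 UMIs, Abcc8 gave -0.03 (-0.41 to 0.36) and -0.17 (-0.45 to 0.13). Kcnj11 gave -0.15 (-1.19 to 0.98) and 0.36 (-0.64 to 1.58) in these shallower bands, so each interval of both genes held 0 there. Both genes had higher CPM in the shallowest than in the deepest band. In WT, Abcc8 measured 263 CPM up to 5000 UMIs and 199 CPM above 30000, and Kcnj11 37.6 and 17.7 CPM. In HFD, Abcc8 measured 258 and 159 CPM and Kcnj11 34.0 and 13.3 CPM in these bands. The WT levels did not fall steadily, with Abcc8 at 313 CPM from 10000 to 15000 UMIs and Kcnj11 at 18.2 CPM (8 UMIs) from 5000 to 10000. Most WT cells were deep and most HFD cells were not. The part of this in the ratio over all cells was not tested. Within clusters found without these genes (described further on), Abcc8 gave -0.02 (-0.11 to 0.07), -0.28 (-0.43 to -0.14), 0.07 (-0.02 to 0.16) and -0.33 (-0.49 to -0.16) in clusters 0, 3, 5 and 6. Kcnj11 gave 0.33 (0.03 to 0.62), 0.26 (-0.17 to 0.68), -0.49 (-0.75 to -0.23) and -0.99 (-1.39 to -0.57), so its direction differed between clusters. WT cells were deeper in each. Median UMIs in WT and HFD were 34256 and 13441 in cluster 0 and 25530 and 9145 in cluster 3. They were 26390 and 12196 in cluster 5 and 18254 and 9987 in cluster 6, so these ratios are not matched for depth.

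Among the calcium channels, Cacna1a was lower in HFD in the 3 bands above 10000 UMIs at -0.93 (-1.41 to -0.41), -0.87 (-1.03 to -0.71) and -0.78 (-1.11 to -0.47). Cacna1d gave -1.13 (-1.56 to -0.67), -0.68 (-0.85 to -0.52) and -0.64 (-0.97 to -0.33) there. Cacna1c gave 0.04 (-0.97 to 1.28), -0.43 (-0.73 to -0.13) and -0.19 (-0.70 to 0.29), from 8, 149 and 361 WT UMIs. Up to 10000 UMIs no calcium channel interval left out 0, with 2 to 15 WT UMIs each. Of the pumps, Atp2a2 gave -0.23 (-0.37 to -0.09), -0.19 (-0.23 to -0.15) and -0.24 (-0.32 to -0.17) above 10000 UMIs but 0.39 (0.05 to 0.75) up to 5000. Atp2a3 gave -0.30 (-0.61 to 0.02), -0.13 (-0.22 to -0.04) and -0.28 (-0.44 to -0.13) above 10000.

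In both bands above 15000 UMIs the interval lay below 1 for 7 of 9 members, beside 23.3% of the genes with at least 500 UMIs, and above 1 for 1 member, beside 8.12%. In all 5 bands 3 members (Abcc8, Trpm5 and Atp2a3) were below 1, beside 10.4% of genes, and 0 were above 1, beside 7.29%.

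**Figure D3:**
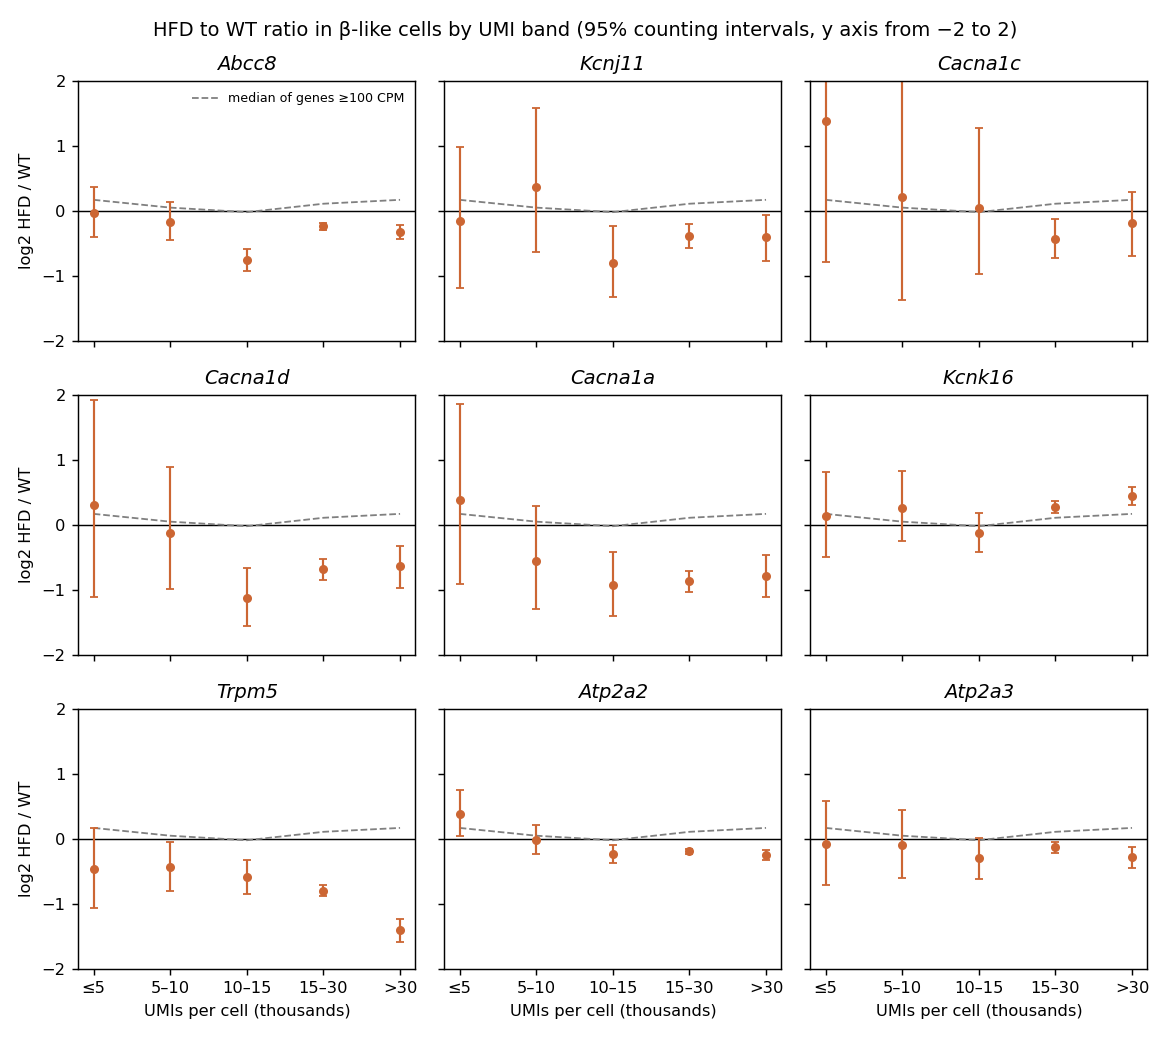
Log2 HFD to WT ratio of each gene in β-like cells (points, with 95% counting intervals) by band of UMIs per cell, with the median of genes of at least 100 CPM as a dashed line. Trpm5 goes from -0.46 in the shallowest to -1.40 in the deepest band, Kcnk16 is above 0 in the 2 deepest bands, and the other 7 are below 0 there.

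The β-like cells fell into clusters found without the members among the clustering genes. Clusters 0 and 3 held 49.5% and 21.6% of WT but 7.63% and 4.52% of HFD β-like cells, whereas clusters 1, 4 and 6 held 0.771%, 1.49% and 3.65% of WT and 17.6%, 22.0% and 23.8% of HFD β-like cells. Trpm5 in HFD cells followed the cluster. In cluster 0 it measured 133 CPM in 963 WT cells and 131 CPM in 451 HFD cells (log2 ratio -0.03, -0.14 to 0.08), and in cluster 3 it measured 128 CPM in both libraries (-0.00, -0.17 to 0.17). In HFD cells it stood at 56.1 CPM in cluster 1, 68.5 CPM in cluster 4 and 74.0 CPM in cluster 6. Cluster 6, with 71 WT and 1405 HFD cells, had 125 CPM in WT and a log2 ratio of -0.76 (-0.99 to -0.52), and cluster 5, with 265 and 1010 cells, 120 and 98.0 CPM and -0.30 (-0.42 to -0.17).

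The same pattern was seen within bands of depth. Among HFD cells of 15000 to 30000 UMIs, Trpm5 measured 122 CPM (111 to 133) in 216 cells of clusters 0 and 3 and 66.3 CPM (63.5 to 69.1) in 1558 cells of the other first-round clusters. From 5000 to 10000 UMIs the values were 147 CPM (131 to 163) and 94.8 CPM (89.4 to 100). WT cells of 15000 to 30000 UMIs measured 133 CPM (126 to 139) and 117 CPM (107 to 128) in the same cluster groups. HFD cells in the clusters that hold most of the HFD library thus had low Trpm5, and HFD cells that clustered with the bulk of the WT cells had a level near that of WT. Other genes were used to form the clusters, so a cluster against another is a description and not a test.

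Cacna1a followed this split less than Trpm5, with overlapping intervals in HFD cells of the cluster groups. Over all bands its HFD level was 21.6 CPM (18.6 to 24.9) in clusters 0 and 3 and 18.3 CPM (17.3 to 19.4) in the other clusters. From 10000 to 15000 UMIs Cacna1a measured 23.2 CPM (17.3 to 30.4) and 18.3 CPM (16.4 to 20.3) in HFD. Among HFD cells of 15000 to 30000 UMIs it measured 18.9 CPM (14.9 to 23.6) in clusters 0 and 3 and 17.4 CPM (16.0 to 18.9) in the other clusters, against 32.9 CPM (29.7 to 36.3) and 29.9 CPM (24.8 to 35.6) in WT. Its ratio was below 1 with the interval in cluster 0 (log2 -0.39, -0.67 to -0.11), cluster 3 (-0.45, -0.83 to -0.08), cluster 5 (-0.37, -0.64 to -0.10) and cluster 6 (-0.71, -1.15 to -0.24). Cacna1d stood at 27.9 CPM (23.0 to 33.5) in HFD cells of clusters 0 and 3 and 18.9 CPM (17.4 to 20.5) in the others in this band, and at 32.3 and 28.2 CPM in WT. Kcnk16 stood at 82.0 CPM (73.5 to 91.3) and 90.8 CPM (87.6 to 94.2) in HFD and at 74.2 and 69.5 CPM in WT. Its HFD levels in these cluster groups were apart from 5000 to 10000 UMIs, at 63.7 CPM (53.9 to 74.8) and 87.5 CPM (82.3 to 92.9), and over all bands, at 77.7 CPM (72.0 to 83.7) and 89.4 CPM (87.2 to 91.7). Within clusters Kcnk16 had log2 ratios of 0.16, 0.12, 0.45 and 0.20 in clusters 0, 3, 5 and 6, with intervals that left out 0 in clusters 0 and 5. Atp2a2 was higher in HFD within clusters 0, 3 and 5 (0.18, 0.19 and 0.18) and lower in cluster 6 (-0.57, -0.68 to -0.46). Cacna1d gave 0.17, -0.24, 0.09 and -0.94, Cacna1c -0.00, -0.15, 0.39 and -0.76, and Atp2a3 -0.36, -0.39, -0.03 and -0.07 in clusters 0, 3, 5 and 6. WT cells were deeper than HFD cells in each of these clusters. The ratios within clusters, those of Trpm5 included, are thus not matched for depth.

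**Figure D4:**
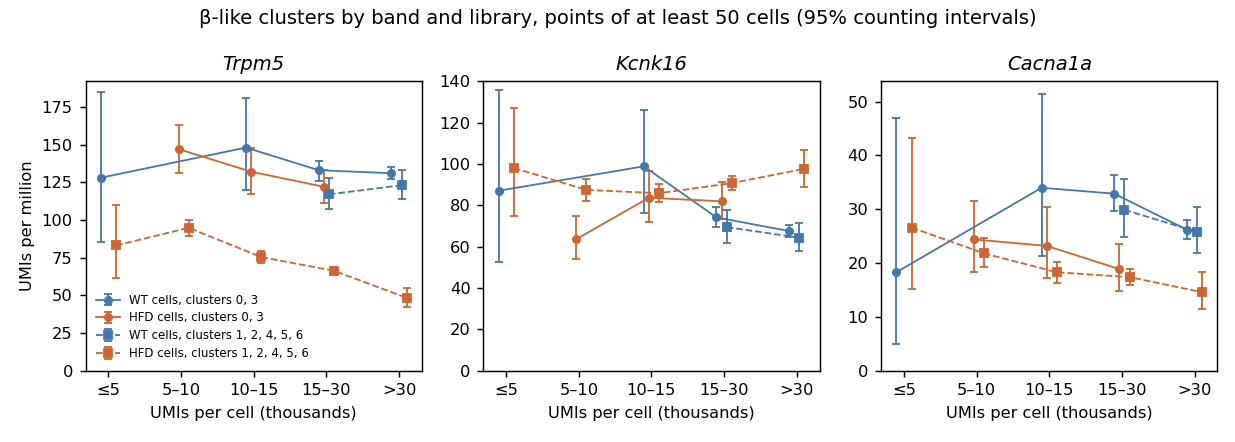
CPM of Trpm5, Kcnk16 and Cacna1a in β-like cells by band of UMIs per cell, for clusters 0 and 3 (circles, solid lines) and clusters 1, 2, 4, 5 and 6 (squares, dashed lines), WT in blue and HFD in orange, with 95% counting intervals and only points of at least 50 cells. HFD cells of clusters 0 and 3 have Trpm5 between 122 and 147 CPM, in the WT range, and HFD cells of the other clusters lie between 48.4 and 94.8 CPM. For Cacna1a the HFD intervals of the cluster groups overlap in every band where both are shown.

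Per cell, the 1703 WT and 2056 HFD β-like cells of at least 15000 UMIs were thinned to 15000 UMIs each. A Trpm5 UMI was then seen in 81.2% (79.2 to 83.0) of WT and 59.8% (57.7 to 62.0) of HFD cells, with means of 1.94 and 1.09 UMIs per cell (SD over cells 1.62 and 1.25). Kcnk16 was seen in 64.4% (62.0 to 66.6) of WT and 73.5% (71.6 to 75.4) of HFD cells, with means of 1.09 and 1.36 UMIs. Cacna1a was seen in 35.1% (32.8 to 37.4) and 23.4% (21.6 to 25.3) of cells, and Cacna1d in 33.2% (30.9 to 35.5) and 25.5% (23.7 to 27.5). For Abcc8, seen in 93.2% and 92.4% of cells, the mean was 3.22 UMIs in WT and 2.81 in HFD. Atp2a3 was seen in 67.2% (64.9 to 69.5) and 66.4% (64.3 to 68.4) of cells. Cells with both Trpm5 and Kcnk16 made 52.0% of WT cells, where the product of the single shares is 52.2%, and 43.7% of HFD cells, where it is 44.0%.

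**Figure D5:**
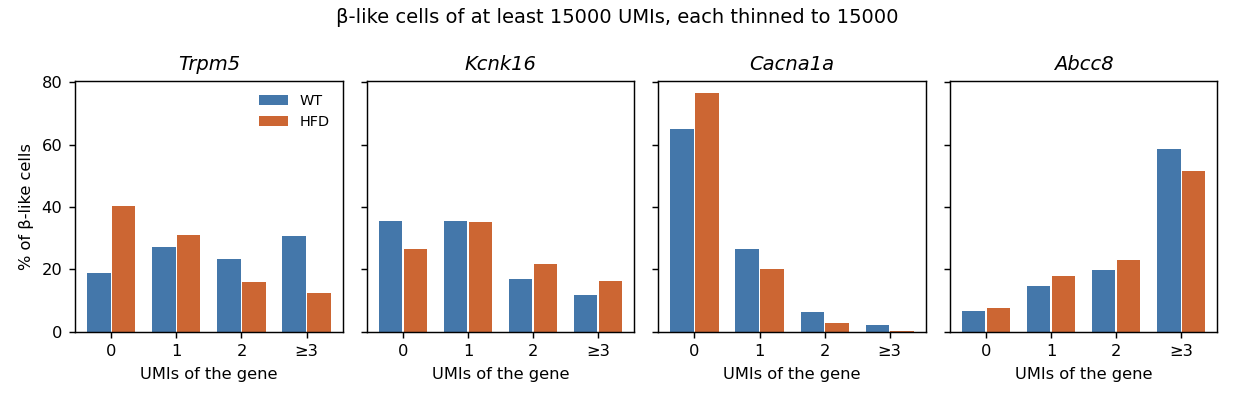
Percent of β-like cells with 0, 1, 2 or at least 3 UMIs of Trpm5, Kcnk16, Cacna1a and Abcc8 after thinning cells of at least 15000 UMIs to 15000, WT in blue and HFD in orange. Cells without a Trpm5 UMI make 18.8% of WT and 40.2% of HFD cells, and for Kcnk16 the shares are 35.6% and 26.5%.

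In α-like cells the HFD to WT interval lay below 1 for 1 of the 7 members with at least 30 UMIs there, beside 11.0% of 5141 genes, namely Abcc8 at 0.772 (0.647 to 0.921). In δ-like cells it lay below 1 for 1 of 7, beside 3.72% of 3625 genes, namely Kcnj11. It lay above 1 for 0 of 7 in both, beside 3.54% and 5.41%. Cacna1a gave 0.682 (0.429 to 1.08) in α-like and 0.933 (0.564 to 1.54) in δ-like cells. Kcnk16 gave 0.881 (0.653 to 1.19) and 0.957 (0.668 to 1.37). With 41 WT and 39 HFD UMIs of Cacna1a in α-like cells and 36 and 33 in δ-like cells, a ratio of the size seen in β-like cells lay inside both intervals and could not be shown or set aside at this depth. Whether any ratio differed between cell types was not tested. Median UMIs per cell in WT and HFD were 11014 and 4466 in α-like cells and 7258 and 2883 in δ-like cells. Insulin took 0.792% of the UMIs of WT and 5.46% of those of HFD δ-like cells. The α-like and δ-like ratios were not split by depth, and the part of these differences in them was not tested.

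A wider list of 147 channel and calcium transport genes, chosen with earlier results of these data known and including the 9 members, was read the same way in β-like cells. Of its 86 genes with at least 50 UMIs, 3 were higher and 9 lower by 1.5-fold, beside 3.23% and 5.69% of all genes, and the median log2 ratio was -0.11. Without the members these were 3 and 7 of 77, and the median was -0.08. Without hormones in the denominator 1 gene was higher and 13 lower. Of the listed genes with at least 500 UMIs, Scn3a, a voltage-gated sodium channel, was higher at a ratio of 1.54 (6.53 CPM in WT, 10.1 CPM in HFD). Itpr1, a calcium release channel of the endoplasmic reticulum, was lower at 0.603 (14.8 and 8.91 CPM), beside Trpm5 and Cacna1a. Its log2 ratio was -0.81 from 15000 to 30000 UMIs and -1.0 above 30000, but 0.96 up to 5000. Itpr1 and Scn3a were higher in α-like and δ-like cells. Itpr1 stood there at 194 and 216 CPM (WT) and 139 and 140 CPM (HFD). Scn3a stood at 36.1 and 78.4 CPM (WT) and 37.8 and 39.9 CPM (HFD). The β-like cells held Gcg at 1505 (WT) and 609 (HFD) CPM, Sst at 1338 and 782, and Ppy at 1798 and 688. The part of RNA from other endocrine cells in the Itpr1 and Scn3a ratios was not tested.

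The other genes past 1.5-fold had 59 to 352 UMIs and were picked out after their values were seen. Higher in HFD were Tmem37 (log2 0.70, 0.27 to 1.14), an auxiliary calcium channel subunit, and Trpc4 (0.66, 0.31 to 1.02), a cation channel. Lower were the inward rectifier Kcnj12 (-1.45, -1.79 to -1.12), the tandem-pore channel Kcnk3 (-0.70, -1.06 to -0.35), the voltage-gated potassium channel subunits Kcnf1 (-0.63) and Kcng3 (-1.11), the sodium-calcium exchanger Slc8a2 (-0.80) and the T-type pore Cacna1h (-0.60, -1.39 to 0.19). Kcnj12 had 240 UMIs in WT and 112 in HFD, and its log2 ratio was -2.21 and -3.09 in the 2 deepest bands. By subgroup the median log2 ratio was -0.28 over 12 voltage-gated potassium channels, -0.42 over 5 calcium channel pores, -0.19 over 6 auxiliary calcium channel subunits, -0.23 over 11 other cation channels, 0.01 over 7 calcium-activated potassium channels and 0.01 over 14 genes of calcium stores. It was 0.11 over 6 tandem-pore potassium channels, 0.11 over 5 voltage-gated sodium channels, -0.10 over 4 KATP and inward rectifier genes, -0.05 over 5 chloride and volume-regulated channels and -0.05 over 11 genes of plasma membrane and mitochondrial calcium transport.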

How the data were processed

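Raw UMI counts per gene and barcode were deposited as 2 matrices, which the authors made with Cell Ranger 3.0.2 on mm10 per the labels. No value was normalised before deposit. Barcodes with at least 500 genes and at most 20% mitochondrial UMIs were used, 2600 in WT and 7297 in HFD. The threshold of the doublet caller Scrublet called 10 WT and 0 HFD barcodes and had not worked, so the highest scores were left out at 0.8% per 1000 cells, 81 in WT and 523 in HFD. Cells were clustered with scanpy 1.11.5 (2000 variable genes, 50 components, 15 neighbours, Leiden resolution 1) without the hormone genes, the members and the wider list. A cluster was named "-like" from fixed marker lists when at least 3 markers were detected and no other list had more markers among its top 10 genes, and clusters with at least 40% insulin UMIs took endocrine names only. Clusters of α, δ and γ type, and any β cluster with over 1% of UMIs from Gcg, Sst, Ppy and Pyy, were clustered again with the hormone genes. This second clustering gave 164 of the WT and 256 of the HFD β-like cells. These naming steps were settled after the clusters were seen.

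UMIs were summed per class and library. With 1 library per group no test was made. Exact 95% intervals cover counting error only, a count of 0 was read as up to 3 counts, and single UMIs were not assumed free of carried-over RNA. A gene was compared in β-like cells when it had at least 50 UMIs, and a 1.5-fold ratio was the rule of size. In α-like and δ-like cells the minimum was 30 UMIs, set after the data were seen. Of the wider list, genes with at least 500 UMIs past that ratio were named by rule, at most 8 in each direction. Genes past that ratio with fewer UMIs were named as well, after their values were seen. The ratio code was checked on simulated counts. Python 3.11.15, numpy 2.4.6, scipy 1.17.1 and edgeR 4.0.16 (normalisation factors only) were used. The members and lists were chosen with earlier results of these data known.

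Alternatives were a UMI maximum of 15000, no doublet step, at least 1000 genes, at most 10% mitochondrial UMIs, Leiden resolution 2, another denominator or scaling, other minimum counts, and cells with under 1% of UMIs from other hormones. Splits by cluster, the second-clustering cells, the unnamed cluster and the per-cell comparison were added after the data were seen. Coordinates of genes come from GENCODE and upstream windows from RefSeq, both on GRCm38, the assembly named mm10 in the labels. Upstream windows were at hand for 5 of the 9 members.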

Additional observations from a re-analysis of the deposited data

Results flagged for a closer look

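These 3 values came from barcodes left out of the comparisons as reported and stood above the WT level of the same kind of barcode. In barcodes with over 20% mitochondrial UMIs, Kcnk16 measured 22.9 CPM in 1123 HFD barcodes and 10.3 CPM in 1009 WT barcodes, from 22 and 17 UMIs. Insulin took 8.75% of the UMIs of these HFD barcodes and 5.07% of those of WT, and its part in the difference was not tested. Barcodes left out as doublets entered only the alternative without a doublet step. In them, Kcnk16 measured 90.6 CPM in 523 HFD and 73.7 CPM in 81 WT barcodes (log2 ratio 0.30, 0.09 to 0.51), the same log2 ratio as in the kept β-like cells. Atp2a2 measured 353 CPM in the HFD and 326 CPM in the WT barcodes left out as doublets.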

How the results depend on the processing

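Over 12 alternatives each, the log2 HFD to WT ratio in β-like cells kept its direction in all 12 for Abcc8 (-0.53 to -0.10), Kcnj11 (-0.49 to -0.02), Cacna1d (-0.73 to -0.37), Cacna1a (-0.76 to -0.55), Trpm5 (-0.84 to -0.48), Atp2a2 (-0.19 to -0.01) and Atp2a3 (-0.32 to -0.14). Kcnk16 kept it in 11 (up to 0.35) and was -0.02 in cells of at most 15000 UMIs, and Cacna1c kept it in 10, with 0.16 in those cells and 0.20 as the mean of the 5 bands. The cause was not tested. The share of all genes past 1.5-fold was 29.7% with at least 1 UMI and 4.03% with at least 500. On the wider list, 12 genes were higher and 26 lower with at least 1 UMI, 1 and 3 with at least 500, 6 and 16 in cells of at most 15000 UMIs, and 1 and 13 without hormones in the denominator. The members higher in β-like than in both α-like and δ-like cells of both libraries were Trpm5, Atp2a2 and Atp2a3 under 5 alternatives, and 4 with Cacna1d added when hormones left the denominator. For Cacna1d the β to δ interval held 1 in both libraries on that scale, at ratios of 1.55 in WT and 1.18 in HFD. Under 1% of UMIs from other hormones left 0 δ-like cells in either library, so that setting gave no levels by type. No paired analysis was possible because each group was 1 library. Few cells and few UMIs limit the δ-like and γ-like levels, with 12 WT and 14 HFD γ-like cells.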
